A study of Homo sapiens with 8 samples.

Results

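The integrin and laminin genes examined here are 26 genes for integrin subunits and 11 genes for laminin chains, 37 of the 20033 protein-coding genes of the gene table. They were taken as a list of gene names, and the rule for membership uses no measured value. Open chromatin at and around them was mapped by ATAC-seq, which uses a transposase to tag accessible DNA for sequencing, in 8 samples of the human lung adenocarcinoma lines H1975 and HCC44. Cells of each line were treated for 96 h, either with ACBI1 or with its solvent DMSO. ACBI1 is a degrader of SMARCA2, SMARCA4 and PBRM1. SMARCA2 and SMARCA4 are the ATPases of the SWI/SNF chromatin remodelling complexes, and PBRM1 is a subunit of one form of them. The labels give the ACBI1 dose as 1 mM, a unit that could not be checked here and may be an error for a smaller one, and all 4 groups carry the genotype label WT. Each group had 2 replicates, and nothing in the labels says that they were separate cultures, so the spread between them may be technical.

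Integrins are cell surface receptors made of 1 alpha and 1 beta subunit that tie the cytoskeleton to the extracellular matrix or to other cells. Laminins are trimers of 1 alpha, 1 beta and 1 gamma chain that form the sheet of the basement membrane, on which epithelial cells such as those of the lung sit. Epithelial integrins bind laminins, collagens or proteins with the short peptide motif RGD, and a separate set of integrins serves leukocytes.

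For each gene, the peaks of each deposited list were counted at 2 kinds of place. Boundary peaks overlapped the 1 kb on either side of either end of the gene. Surrounding peaks lay elsewhere in the gene body or within 50 kb of it. A gene was said to have fewer surrounding peaks with ACBI1 when both ACBI1 samples of a line lay below both DMSO samples. With 2 samples against 2, an exact permutation test cannot give a p below 0.333 within a line or 0.0556 over both, so no p is given, and each count is set beside the same count over all protein-coding genes.

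The lists held 41027 to 50347 peaks with DMSO and 22133 to 27682 with ACBI1, the shortest being that of H1975 with ACBI1, replicate 2. The depth in reads is unknown. Fewer peaks can therefore be counted around any gene in an ACBI1 list, and a peak that is not listed is not a measurement of closed chromatin. Boundary peaks were listed in all 8 samples at EPCAM, KRT8 and KRT18, which are epithelial genes, and in none at PTPRC, PECAM1 and CDH5, which mark leukocytes and endothelium. SPI1, a leukocyte factor, and COL1A1, a fibroblast collagen, also had one in all 8 samples, so such peaks alone do not set cell types apart.

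The promoter sequences of 7 starts are shown because the results below turn on them: a start with a listed peak in 1 line only, starts whose peak was kept while the peaks around the gene were lost, a start whose peak was lost, and a start with no listed peak. Each is the 250 bases before an annotated start, 5′ to 3′ on the gene's own strand, from RefSeq on GRCh38.p14. RefSeq promoters were matched for 26 of the 37 genes, with 33 starts. Capitals mark matches, on either strand, to the AP-1 motif TGANTCA or to the GC box GGGCGG, which reads CCGCCC on the other strand.
LAMA3, internal start: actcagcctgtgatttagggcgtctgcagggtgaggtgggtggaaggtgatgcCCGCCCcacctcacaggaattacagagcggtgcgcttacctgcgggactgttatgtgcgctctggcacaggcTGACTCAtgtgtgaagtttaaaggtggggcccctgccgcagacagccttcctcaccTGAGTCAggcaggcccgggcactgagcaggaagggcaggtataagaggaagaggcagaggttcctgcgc
LAMB3, inner start: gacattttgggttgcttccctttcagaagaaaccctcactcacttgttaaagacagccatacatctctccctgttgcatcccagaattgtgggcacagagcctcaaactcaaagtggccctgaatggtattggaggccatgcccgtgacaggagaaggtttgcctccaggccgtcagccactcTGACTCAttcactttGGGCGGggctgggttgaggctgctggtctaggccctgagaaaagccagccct
ITGA2: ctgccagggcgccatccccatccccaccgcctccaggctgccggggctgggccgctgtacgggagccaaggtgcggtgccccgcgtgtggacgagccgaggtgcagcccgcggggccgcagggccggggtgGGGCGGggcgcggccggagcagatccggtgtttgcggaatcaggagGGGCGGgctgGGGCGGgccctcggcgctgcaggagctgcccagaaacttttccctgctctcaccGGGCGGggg
LAMC1: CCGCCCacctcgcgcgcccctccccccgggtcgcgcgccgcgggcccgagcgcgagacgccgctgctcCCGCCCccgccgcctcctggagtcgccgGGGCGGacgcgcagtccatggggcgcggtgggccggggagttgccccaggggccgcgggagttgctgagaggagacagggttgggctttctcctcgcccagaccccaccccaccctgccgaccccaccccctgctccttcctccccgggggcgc
LAMB1: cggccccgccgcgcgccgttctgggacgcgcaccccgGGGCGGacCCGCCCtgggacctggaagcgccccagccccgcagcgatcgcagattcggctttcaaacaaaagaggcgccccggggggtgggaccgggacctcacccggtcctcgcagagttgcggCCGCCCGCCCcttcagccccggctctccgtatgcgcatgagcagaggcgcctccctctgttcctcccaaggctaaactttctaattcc
ITGA11: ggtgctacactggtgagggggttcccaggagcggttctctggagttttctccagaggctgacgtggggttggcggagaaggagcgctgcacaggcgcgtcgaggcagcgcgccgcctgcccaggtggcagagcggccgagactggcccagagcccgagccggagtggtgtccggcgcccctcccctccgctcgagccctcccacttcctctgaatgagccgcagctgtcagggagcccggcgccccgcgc
ITGB6: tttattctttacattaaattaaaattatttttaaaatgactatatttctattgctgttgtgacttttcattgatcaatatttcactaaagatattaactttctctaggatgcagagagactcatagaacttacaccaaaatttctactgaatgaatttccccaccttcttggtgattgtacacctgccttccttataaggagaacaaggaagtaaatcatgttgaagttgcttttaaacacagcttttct

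The LAMA3 internal start lies at chr18:23872770-23873019 on the plus strand, far inside the LAMA3 gene (chr18:23689453-23955066). It holds 2 AP-1 matches, whose first bases are 125 and 69 bases before the start, and 1 GC box. The LAMB3 inner start, chr1:209651375-209651624 on the minus strand, holds 1 AP-1 match beginning 67 bases before the start, and 1 GC box. The ITGA2 window, chr5:52989102-52989351 on the plus strand, holds 4 GC boxes, and that of LAMC1, chr1:183023170-183023419 on the plus strand, holds 3. The LAMB1 window, chr7:108003162-108003411 on the minus strand, holds 4 GC boxes, a pair of which overlap. ITGA11, chr15:68432164-68432413 on the minus strand, and ITGB6, chr2:160200273-160200522 on the minus strand, hold neither motif. Their base composition differs widely, with 71.2% G or C at ITGA11 and 30.0% at ITGB6, against a median of 62.0% over 22198 promoters.

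Among those 22198 promoters, 5.36% held the AP-1 letters and 53.7% the GC box. The AP-1 letters stood in 3.35% of the 10635 promoters with a peak in all 8 samples, and in 6.80% of the 8679 with a peak in none. They stood in 23.6% of the 280 whose peak was listed in both DMSO samples and neither ACBI1 sample of H1975, and in 18.1% of the 626 of that kind in HCC44. Of the 33 integrin and laminin starts, 6.06% held them, and those are the LAMA3 and LAMB3 starts printed above. Neither start lost its peak with ACBI1. The LAMB3 start had a peak in all 8 samples, and the LAMA3 start in every H1975 sample and no HCC44 sample. The other motifs searched were TEAD (GGAATG), the TATA box (TATAAA) and the E-box (CANNTG), found in 12.1%, 6.06% and 54.5% of these starts against 10.5%, 9.01% and 58.1% of all promoters. A match of letters describes the sequence and does not show that a factor binds it.

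With ACBI1, many integrin and laminin genes had fewer peaks around them, and none had more. In H1975, 24 of the 37 genes had fewer surrounding peaks, against 42.9% of all protein-coding genes. In HCC44 it was 26 of the 37, against 54.3%. In both lines together it was 20, against 33.5%. None of the 37 had more surrounding peaks in either line, against 1.38% of all genes in H1975 and 1.84% in HCC44. These genes are long, with a median length of 79.4 kb against 24.1 kb over all genes, and their median number of surrounding peaks with DMSO was 7.0 in H1975 and 7.5 in HCC44, against 3.0 and 4.0. A further count took only genes with a mean of at least 5 surrounding peaks over the 8 samples. Of 22 such integrin and laminin genes, 18 had fewer in H1975, against 56.1% of all such genes. In HCC44 it was 17 of 22, against 70.5%. This filter uses the very counts that are compared. ITGB6 and ITGA2, for example, lay below 5 in every ACBI1 sample and passed through their DMSO counts. Whether the excess holds among genes matched by length and DMSO count was not tested.

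The same counts were made of surrounding peaks at no protein-coding gene's boundary, which are distal to every annotated gene end. Such peaks were fewer with ACBI1 for 24 genes in H1975, against 42.6% of all genes, for 26 in HCC44, against 52.3%, and for 21 in both lines, against 32.7%. None of the 37 had more, against 1.21% and 1.95%. Surrounding peaks at the boundary of another gene behaved differently. In H1975 they were fewer at ITGB4 alone, against 4.15% of all genes, and in HCC44 at ITGB6, ITGA9, ITGAE and ITGB7, against 8.98%.

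**Figure D1:**
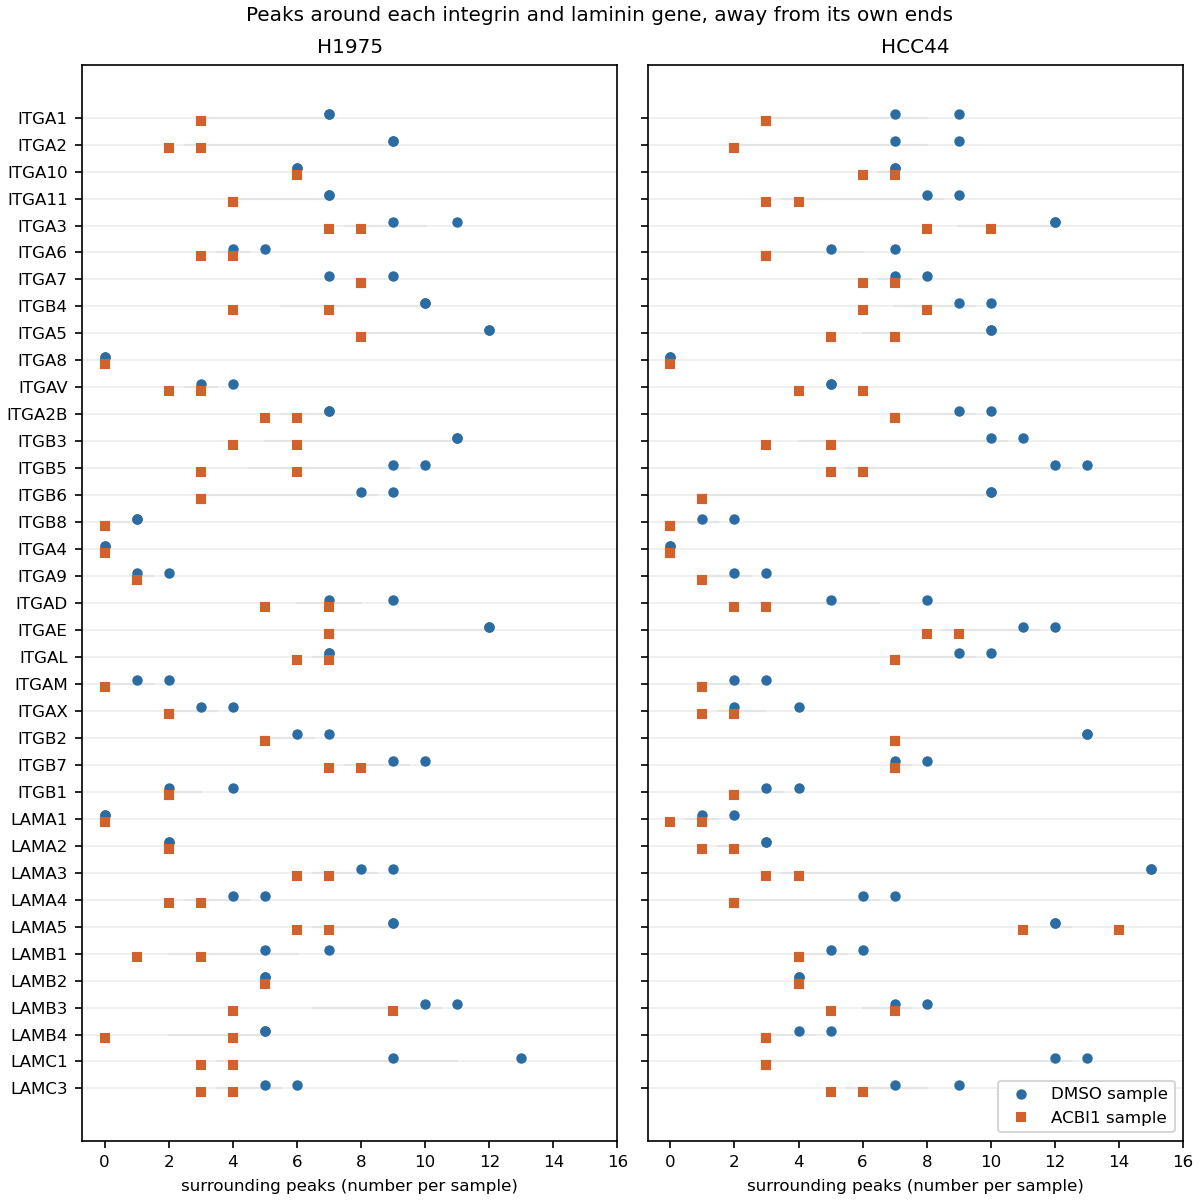
Number of surrounding peaks (x axis) for each of the 37 genes (y axis) in each sample of H1975 (left) and HCC44 (right), with DMSO samples as circles and ACBI1 samples as squares. The grey line joins the group means. The widest gap is at LAMA3 in HCC44, from 15 in both DMSO samples to 3 and 4 with ACBI1, while LAMB2 stays at 5 in H1975 and at 4 in HCC44.

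The collagen receptor subunits ITGA1, ITGA2, ITGA10 and ITGA11 share ITGB1 as their partner, and 3 of the 4 had fewer surrounding peaks in both lines, against 33.5% of all genes. ITGA2 had 9 and 9 surrounding peaks with DMSO and 3 and 2 with ACBI1 in H1975, and 9 and 7 against 2 and 2 in HCC44. ITGA1 had 7 and 7 against 3 and 3 in H1975, and 9 and 7 against 3 and 3 in HCC44. ITGA11 had 7 and 7 against 4 and 4 in H1975, and 9 and 8 against 3 and 4 in HCC44. The groups did not overlap in any of these 6 comparisons. ITGA10 differed from the rest of the set, with 6 peaks in every H1975 sample and 7, 7, 7 and 6 in HCC44, nearly all of them at the boundaries of neighbouring genes. ITGA1 and ITGA2 are neighbours on chromosome 5 and their 50 kb windows overlap, so some peaks count for both.

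The laminin receptor subunits ITGA3, ITGA6, ITGA7 and ITGB4 changed less evenly, with ITGA3 and ITGB4 lower in both lines. ITGA6 pairs with ITGB4 in hemidesmosomes, the anchors of epithelial cells to the basement membrane. ITGB4 had 10 and 10 surrounding peaks with DMSO and 7 and 4 with ACBI1 in H1975, and 9 and 10 against 8 and 6 in HCC44. ITGA6 had fewer in HCC44 only, with 5 and 7 against 3 and 3, while in H1975 its values of 4 and 5 against 4 and 3 overlapped. ITGA3, which binds laminins together with ITGB1, had 11 and 9 against 8 and 7 in H1975, and 12 and 12 against 10 and 8 in HCC44. ITGA7 overlapped between the groups in both lines. Whether the lines differed in their fall was not tested.

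Of the 8 subunits of RGD receptors, 6 had fewer surrounding peaks in both lines, against 33.5% of all genes. They include ITGB6, which is known as an epithelial activator of latent TGF-beta, with 9 and 8 against 3 and 3 in H1975 and 10 and 10 against 1 and 1 in HCC44. ITGB5, a partner of ITGAV in vitronectin binding, had 10 and 9 against 6 and 3 in H1975, and 12 and 13 against 6 and 5 in HCC44. ITGB3, best known from platelets, had 11 and 11 against 6 and 4 in H1975, and 10 and 11 against 5 and 3 in HCC44. ITGA5, which makes the fibronectin receptor with ITGB1, had 12 and 12 against 8 and 8 in H1975, and 10 and 10 against 7 and 5 in HCC44. The other two of the 6 were ITGA2B and ITGB8. ITGAV, the alpha subunit that ITGB3, ITGB5, ITGB6 and ITGB8 share, overlapped between the groups, with 4 and 3 against 3 and 2 in H1975 and 5 and 5 against 4 and 6 in HCC44. ITGA8 had no peak at all in any list.

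The leukocyte subunits ITGAD, ITGAE, ITGAL, ITGAM, ITGAX, ITGB2 and ITGB7 also had peaks around them, although their own boundaries mostly had none. ITGAE, which with ITGB7 binds the epithelial cadherin, had 12 and 12 surrounding peaks against 7 and 7 in H1975, and 12 and 11 against 9 and 8 in HCC44. ITGB2, the shared beta subunit of leukocyte integrins, had 6 and 7 against 5 and 5 in H1975, and 13 and 13 against 7 and 7 in HCC44. ITGAM, ITGAX and ITGAD lie side by side on chromosome 16 and share peaks. The genes around the leukocyte subunits have peaks of their own, and of 44 and 43 distinct surrounding peaks with DMSO in H1975, 16 and 15 lay at the boundary of another gene.

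ITGB1 is the common partner of the collagen receptors and of several laminin and RGD receptors. It had few surrounding peaks, 4 and 2 against 2 and 2 in H1975, where the groups met, and 4 and 3 against 2 and 2 in HCC44, where they did not. ITGA9 had 1 to 3 in all samples. ITGA4 had no peak in any list, as did ITGA8, and 9.42% of all protein-coding genes were without one.

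Averaged over both lines, LAMC1 and LAMA3 fell most among the laminin chains, although in H1975 alone LAMB1, LAMB3, LAMB4 and LAMA5 fell by more than LAMA3. LAMC1, the gamma chain of most laminins, had 13 and 9 surrounding peaks with DMSO and 4 and 3 with ACBI1 in H1975, and 13 and 12 against 3 and 3 in HCC44. LAMA3, an alpha chain of epithelial laminins, had 9 and 8 against 7 and 6 in H1975, and 15 and 15 against 3 and 4 in HCC44. LAMA4 had 5 and 4 against 3 and 2, and 7 and 6 against 2 and 2, so it was lower in both lines. LAMB3, which joins LAMA3 in the laminin of hemidesmosomes, had 10 and 11 against 9 and 4 in H1975 and 7 and 8 against 7 and 5 in HCC44, where the groups met. LAMB2, a beta chain, had 5 surrounding peaks throughout H1975 and 4 throughout HCC44. LAMA5 had 9 and 9 against 6 and 7 in H1975, and 12 and 12 against 14 and 11 in HCC44, the one gene whose HCC44 mean was higher with ACBI1.

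**Figure D2:**
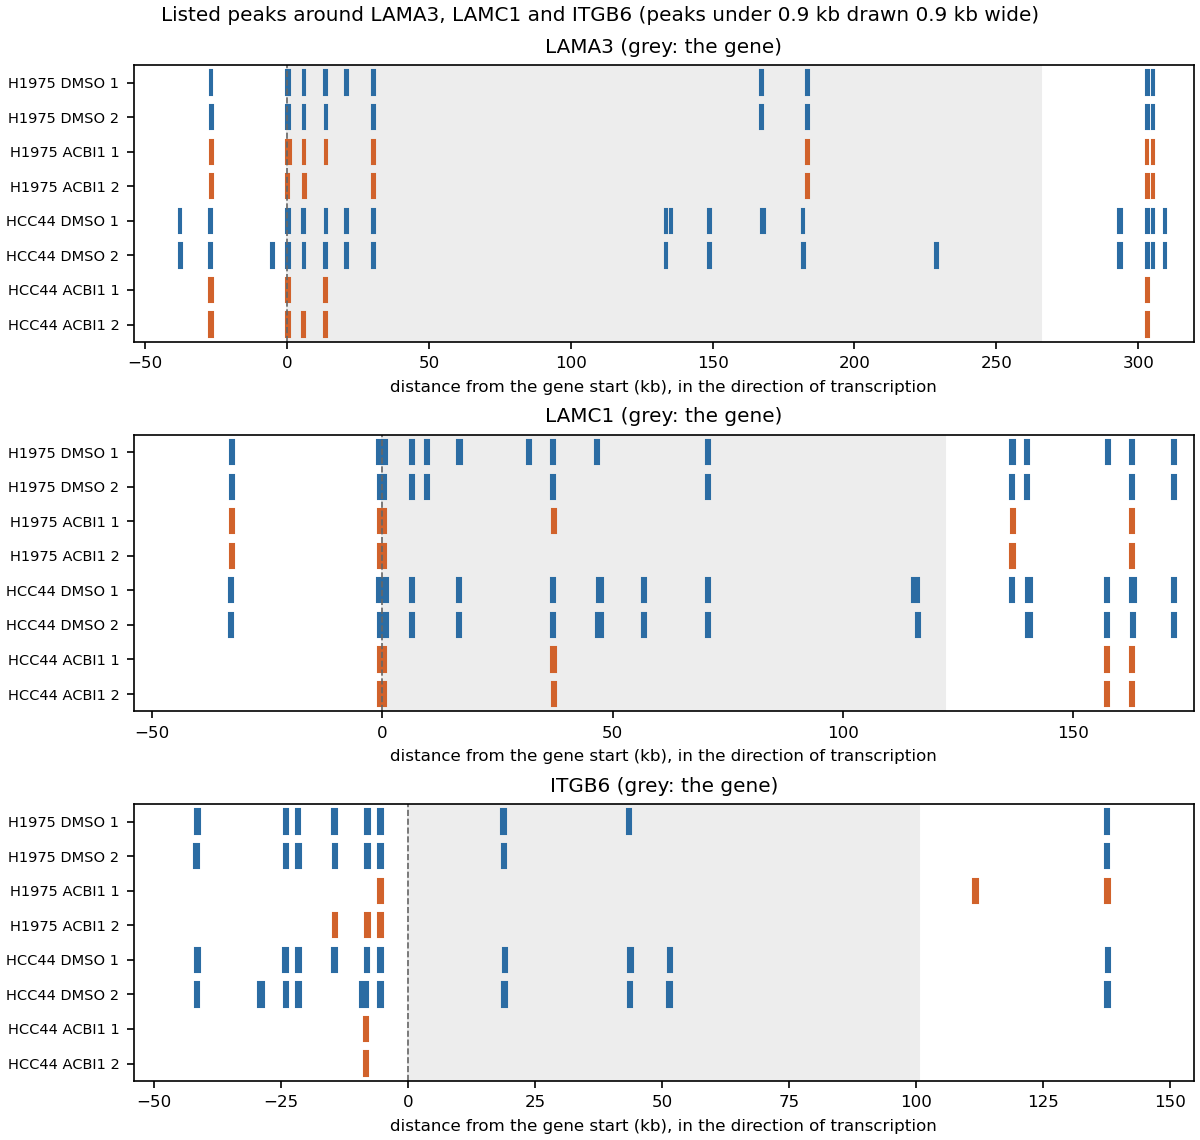
Listed peaks in each sample (rows, DMSO blue and ACBI1 orange) along LAMA3, LAMC1 and ITGB6, by distance from the gene start in kb, in the direction of transcription, with the gene body in grey. The peak at the start of LAMA3 and of LAMC1 is in all 8 samples, and ITGB6 has none there. Most peaks away from the starts are missing from the ACBI1 rows, except at LAMA3 in H1975. There the surrounding peaks number 9 and 8 with DMSO and 7 and 6 with ACBI1.

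At LAMC1, the peak over the start was 1964 and 1856 bp wide with DMSO and 1809 and 1761 bp with ACBI1 in H1975, and 2287, 2213, 1776 and 1780 bp in HCC44. It covers the GC-rich window printed above. At ITGA2, whose window holds 4 GC boxes, the peak over the start was 2245 and 2214 bp wide with DMSO and 2218 and 1040 bp with ACBI1 in H1975, and 2256 and 2245 against 1271 and 1283 bp in HCC44. Both starts kept a peak in all 8 samples while the number of peaks around them fell. Near ITGB6, whose AT-rich window has no listed peak in any sample, most losses were in the flank before the gene and in its body.

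LAMA3 has more than 1 start, and the lines differed at the internal one. A peak at chr18:23872705-23873171 covered its AP-1 matches in all 4 H1975 samples. It was 467 and 413 bp wide with DMSO and 316 and 233 bp with ACBI1. Each peak was ranked by the authors' −log10 q within its own list, and this peak stood at the 74.8th and 64.6th percentile with DMSO and at the 33.5th and 5.06th with ACBI1. No HCC44 list had a peak there. Both HCC44 DMSO lists did have one nearby, at chr18:23871067-23871750, which ends shortly before the printed window of the internal start. The outer start of LAMA3 had a boundary peak in all 8 samples. The 2 AP-1 matches are thus in DNA that was listed as open in H1975 only.

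Summed over the 37 genes and counting each peak once, surrounding peaks numbered 228 and 216 with DMSO and 155 and 127 with ACBI1 in H1975. The log2 difference was −0.66, and the SD of replicates on the log2 scale was 0.15 (n = 2 per group). In HCC44 they numbered 257 and 249 against 153 and 142, a log2 difference of −0.78 with an SD of 0.06. Almost all of the change was in peaks at no gene boundary. Those numbered 167 and 157 against 97 and 72 in H1975, a log2 difference of −0.95, and 195 and 186 against 95 and 84 in HCC44, −1.09. Over the whole lists, peaks at no gene boundary differed by −1.14 and −1.36. Surrounding peaks at the boundary of another gene numbered 61 and 59 against 58 and 55 in H1975, and 62 and 63 against 58 and 58 in HCC44.

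**Figure D3:**
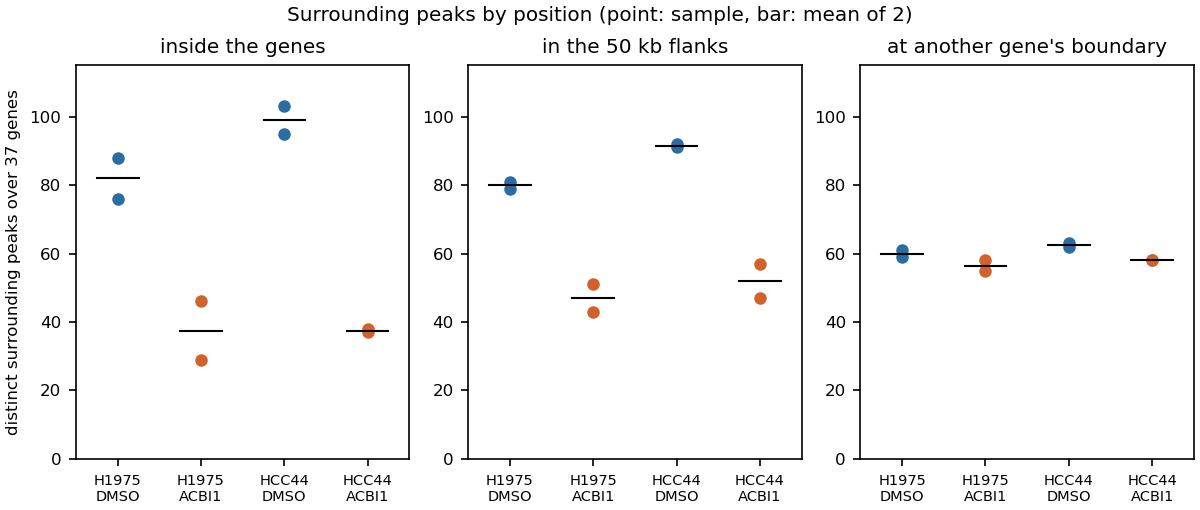
Distinct surrounding peaks over the 37 genes (y axis, number per sample) inside the genes, in the 50 kb flanks and at another gene's boundary, by line and treatment, each point a sample and each bar the mean of 2. Peaks inside the genes went from 88 and 76 to 46 and 29 in H1975 and from 103 and 95 to 38 and 37 in HCC44, while those at another gene's boundary stayed between 55 and 63.

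Inside the genes, peaks at no boundary went from 88 and 76 with DMSO to 46 and 29 with ACBI1 in H1975, and from 103 and 95 to 38 and 37 in HCC44. In the flanks they went from 79 and 81 to 51 and 43 in H1975, and from 92 and 91 to 57 and 47 in HCC44. By role, the collagen receptor subunits had 16 and 16 such peaks with DMSO and 6 and 4 with ACBI1 in H1975, and 22 and 17 against 6 and 6 in HCC44. The laminin receptor subunits had 21 and 22 against 17 and 13, and 23 and 24 against 16 and 13. The laminin gamma chains had 16 and 12 against 6 and 4, and 17 and 18 against 6 and 5. The difference between these roles was not tested. Between them the log2 difference in H1975 ran from −0.53 for the laminin receptors to −1.71 for the collagen receptors. In HCC44 it was −0.70 for the laminin receptors, −1.69 for the collagen receptors and −1.68 for the gamma chains. In H1975 and HCC44 it was −1.09 and −1.27 for the RGD receptors, and −0.73 and −0.83 for the leukocyte subunits. It was −0.63 and −1.25 for the laminin alpha chains, and −1.28 (replicate SD 0.85) and −0.44 for the beta chains.

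The direction of these totals depends on the length of the lists. When each list was shortened to its 22133 peaks with the highest −log10 q, the log2 difference of the summed surrounding peaks became 0.15 in H1975 and 0.22 in HCC44. At no gene boundary it was 0.21 and 0.23 for these genes, while peaks at no gene boundary over the whole shortened lists differed by −0.16 and −0.21. Then 6 genes had fewer surrounding peaks in H1975 and 7 in HCC44, against 12.0% and 13.9% of all genes, and 10 and 12 had more, against 21.6% and 27.6%. LAMC1, ITGB5 and ITGA1 still had fewer in both lines. LAMC1 then had 4 and 5 against 3 and 3 in H1975, and 4 and 4 against 3 and 3 in HCC44. ITGB5 had 7 and 6 against 5 and 3 in H1975, and 6 and 8 against 3 and 4 in HCC44. LAMA3 then had fewer in HCC44, 6 and 6 against 3 and 3, and more in H1975, 5 and 5 against 6 and 6. ITGB2 had more in both lines, 1 and 2 against 5 and 5, and 3 and 3 against 7 and 6.

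**Figure D4:**
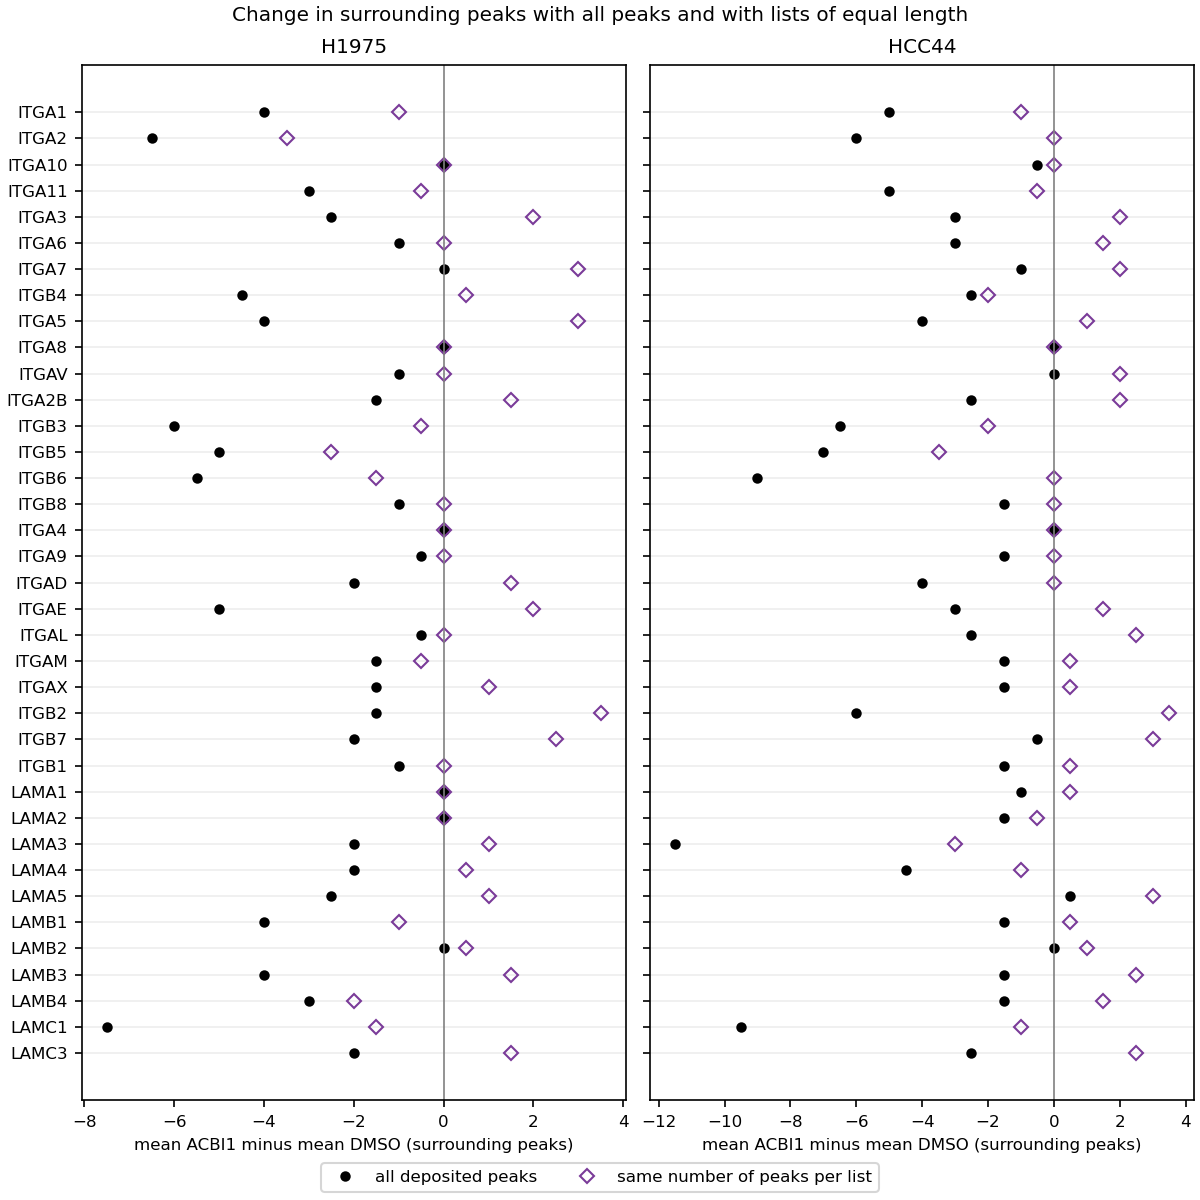
Difference of the mean number of surrounding peaks, ACBI1 minus DMSO (x axis), for each gene in H1975 (left) and HCC44 (right), from all deposited peaks (black) and from the 22133 peaks of highest −log10 q in each list (open diamonds). With all peaks no gene but LAMA5 in HCC44 lies right of 0, and with lists of equal length many genes do.

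Regions were formed by merging the overlapping peaks of a line's 4 samples, and a region was called lost when both DMSO samples and neither ACBI1 sample had a peak there. Among surrounding regions that both DMSO lists shared, 62 of 203 were lost in H1975, or 30.5% (exact 95% interval 24.3% to 37.4%). In HCC44 it was 98 of 231, or 42.4% (36.0% to 49.1%). At no gene boundary the share was 42.4% in H1975 (34.2% to 50.9%), against 48.2% of such regions around all genes, and 55.0% in HCC44 (47.2% to 62.7%), against 60.7%. At the boundary of another gene it was 1.69% in H1975 and 8.06% in HCC44, against 4.23% and 8.72% of all regions at a gene boundary. These intervals cover counting error only. With lists of equal length the share lost over all surrounding regions was 13.5% in H1975 and 22.3% in HCC44. At no gene boundary it was then 26.4% of 53 regions in H1975 and 42.0% of 50 in HCC44, both below the intervals above. The same shares around all genes were not computed with lists of equal length.

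Lost regions at no boundary were narrower than retained ones, with a median of 364 against 774 bp in H1975 and 649 against 1024 bp in HCC44. Their median percentile by −log10 q was 36.9 against 57.8 in H1975 and 39.5 against 55.7 in HCC44. The lost regions were thus nearer to the bottom of their lists. Around all genes the percentiles were 35.2 against 64.9 and 43.1 against 58.2.

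With the peaks of all 8 samples merged, 37 regions around these genes were lost in both lines, 84 had a peak in every sample, and none was gained in both. Of the 37 lost regions, 36 were at no gene boundary and 21 lay inside an integrin or laminin gene. Of the 84 in every sample, 30 were at no gene boundary. ITGA1, ITGA2, ITGB3, ITGB6 and LAMC1 each had 4 of the 37 in their windows. The 6 lost regions that ranked highest by −log10 q in the DMSO lists were taken as examples, and the fold values given for them are the authors' fold enrichments over background.

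The highest lay inside ITGA1, at chr5:52922351-52922797, with folds of 11.4 and 13.8 in the H1975 DMSO samples and 8.02 and 7.80 in those of HCC44. The next lay inside LAMB1, at chr7:107966784-107967237, with folds of 11.1 and 9.22 in H1975 and 7.50 and 6.44 in HCC44. It also falls in the window of LAMB4, the neighbouring beta chain gene. In ITGA2, the region chr5:53069488-53069987 had folds of 11.5 and 13.8 and of 10.1 and 6.57. These 3 stood between the 60.5th and the 95.6th percentile of their DMSO lists, a rank that follows from how the 6 were chosen. The others were chr17:44417603-44418110 before the start of ITGA2B, chr17:47257652-47258295 inside ITGB3, and chr1:209607156-209607989 beyond the end of LAMB3. Their lowest percentiles in a DMSO list were 67.1, 41.2 and 35.9, in that order. None of the 6 had a peak in any ACBI1 list. Their sequences, and whether they lie in exons or introns, were not analysed here.

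Most boundary peaks were kept. In H1975, both DMSO lists had a boundary peak at 20 of the 37 genes, and both ACBI1 lists had one at 19 of those 20, against 95.3% of all such genes. In HCC44 it was 21 of 24, against 91.9%. In all, 17 genes had a boundary peak in all 8 samples, against 52.7% of all genes, and 10 had none in any sample, against 33.0%. The 17 include the epithelial laminin receptor genes ITGA3, ITGA6 and ITGB4, and ITGB1. The 10 were ITGA2B, ITGA4, ITGA8, ITGAD, ITGAE, ITGAL, ITGB6, LAMA1, LAMA2 and LAMB4. Some boundary peaks sit where a neighbour also ends or starts, such as PELO beside ITGA1, BLOC1S1 beside ITGA7 and USP19 beside LAMB2, and cannot be given to 1 gene. Among peaks of at least 5-fold enrichment, a cutoff that was the same in every list, the counts were 11 of 13 in H1975 and 0 of 8 in HCC44. With lists of equal length the count was 12 of 12 in HCC44.

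**Figure D5:**
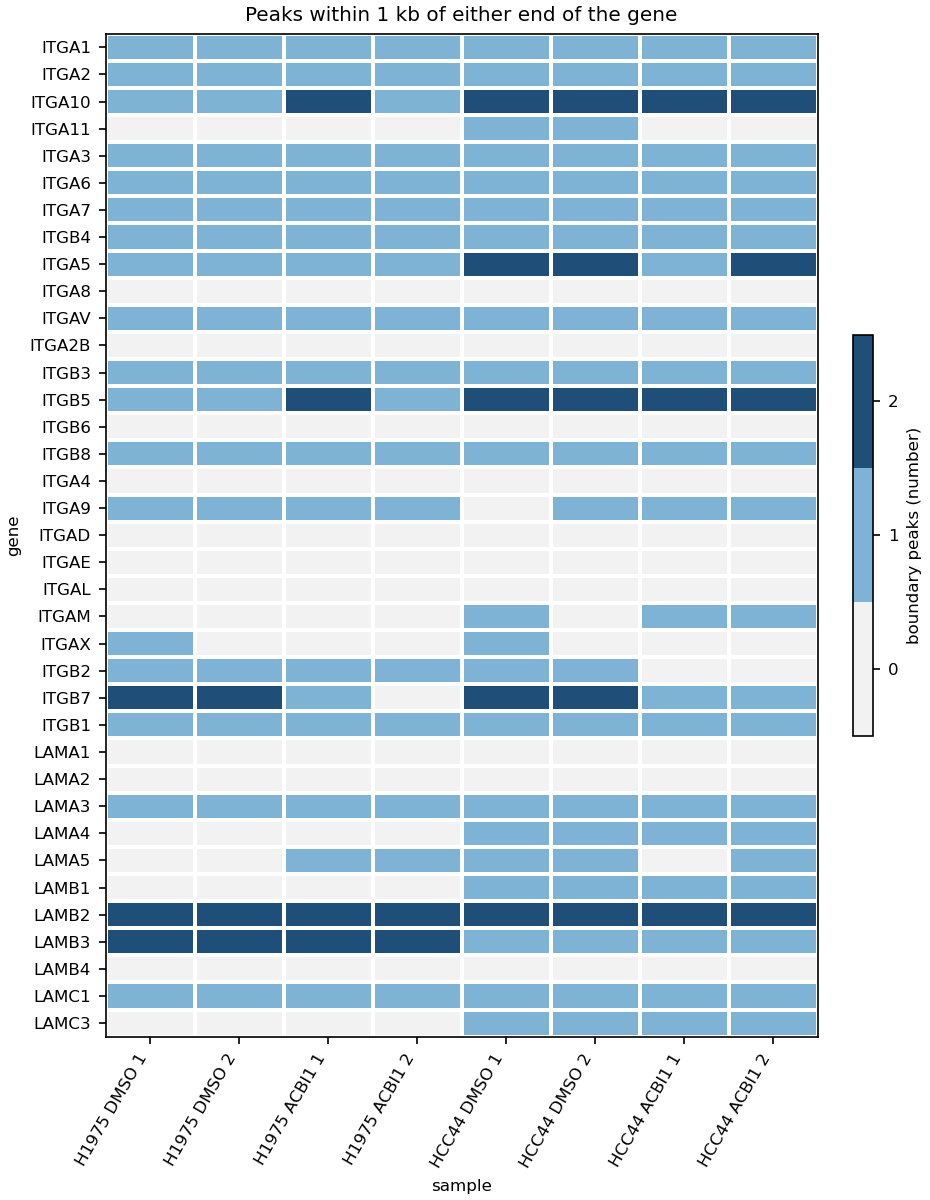
Number of boundary peaks, 0, 1 or 2 by colour, for each gene (rows) in each of the 8 samples (columns). The rows of ITGA11, LAMA4, LAMB1 and LAMC3 are empty in H1975 and filled in the HCC44 DMSO samples, and ITGA11 and ITGB2 lose their peak with ACBI1 in HCC44.

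The exceptions were few. ITGA11 had one in each HCC44 DMSO sample, 631 and 660 bp wide over the start printed above, and none with ACBI1 or in H1975. That peak ranked low by −log10 q, at percentiles 20.5 and 35.2 of the HCC44 DMSO lists. With lists of equal length ITGA11 had no boundary peak in any sample. With all peaks, ITGB2 likewise had a boundary peak in HCC44 with DMSO and none with ACBI1, but had one in all 4 H1975 samples. ITGB7 had 2 and 2 in the H1975 DMSO samples against 1 and 0 with ACBI1. In that last sample a peak was listed in the same merged region, outside the 1 kb window. LAMA5 had 0 and 0 in the H1975 DMSO samples against 1 and 1 with ACBI1, a pattern seen in 0.270% of all genes. In HCC44 no gene of the 37 had that pattern, against 0.349%. Its region, chr20:62367092-62371021, had a peak in all 8 samples, however, and the peaks differed in whether they reached the window. In HCC44 LAMA5 had 1 and 1 against 0 and 1.

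The lines differed at the ends of several genes, which may be the start or the far end. With DMSO, 5 genes had a boundary peak in both HCC44 samples and neither H1975 sample, against 3.84% of all genes: ITGA11, LAMA4, LAMA5, LAMB1 and LAMC3. None had the reverse, against 2.74%. Of the 5, 4 are laminin chains, and LAMA5 again turns on the width of a peak that both lines have. At LAMB1, a beta chain found in many basement membranes, the HCC44 peak over the start was 2150 and 2160 bp wide with DMSO and 2104 and 2128 bp with ACBI1, and it covers the 4 GC boxes printed above. LAMA4, LAMB1 and LAMC3 kept the peak in both ACBI1 samples of HCC44. With ACBI1, 4 genes had a boundary peak in HCC44 only, against 2.26%, namely these 3 and ITGAM, and ITGB2 had one in H1975 only, against 2.98%. With lists of equal length, none of the 5 genes named first had a boundary peak in either HCC44 DMSO sample. LAMA4, LAMB1 and LAMC3 then had 1 in each HCC44 ACBI1 sample.

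Surrounding peaks with DMSO were more numerous in both HCC44 samples than in both H1975 samples for 15 of the 37 genes, against 32.0% of all genes, and fewer for 4, against 15.2%. The widest gaps were at ITGB2, with 6 and 7 in H1975 and 13 and 13 in HCC44, and at LAMA3, with 9 and 8 and with 15 and 15. LAMA5 had 9 and 9 and 12 and 12, and ITGB5 had 10 and 9 and 12 and 13. LAMB3 went the other way, with 10 and 11 in H1975 and 7 and 8 in HCC44. ITGA2B, ITGAL and LAMC3 came next, each 2.5 peaks higher on average in HCC44. With ACBI1 the lines were closer, with 8 genes higher in HCC44, against 15.1%, and 6 lower, against 14.4%. How far these counts rest on single libraries was not tested. With a replicate left out the rule is easier to meet, so a count could then only stay or rise. All genes were not recounted in that way. Without H1975 ACBI1 replicate 1 the 8 became 14, and without replicate 2 the 6 became 14. Without HCC44 DMSO replicate 1 the 4 genes lower with DMSO became 9. Among peaks of at least 5-fold enrichment the balance turned, with 3 genes higher in HCC44 and 17 lower with DMSO, and 1 higher and 21 lower with ACBI1. Whether fold values are on the same scale in both lines was not tested. With lists of equal length 5 genes were higher in HCC44 with DMSO and 9 lower, and the part of the longer HCC44 DMSO lists in this result was not tested further.

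Other genes of cell adhesion were counted in the same way, with no test of how they differ from the integrin and laminin genes. A list of 27 genes held adaptors that link integrins to actin, hemidesmosome and partner receptor genes, basement membrane proteins other than laminins, and integrin ligands. Of these, 17 had fewer surrounding peaks in H1975, against 42.9% of all genes, and 23 in HCC44, against 54.3%, and none had more. TNC, a matrix glycoprotein, had 9 and 6 against 1 and 0 in H1975, and 10 and 11 against 1 and 1 in HCC44. DST, which holds keratin filaments at hemidesmosomes, had 19 and 15 against 9 and 4, and 23 and 23 against 9 and 9. AGRN, a heparan sulfate proteoglycan of basement membranes, overlapped in both lines, with 12 and 11 against 12 and 11 in H1975. Boundary peaks were kept at 18 of 19 genes in H1975, against 95.3% of all such genes, and at 16 of 17 in HCC44, against 91.9%. The median difference, ACBI1 minus DMSO, was −2.0 surrounding peaks in H1975 for this list and for the integrin and laminin genes, against −1.0 over all genes, and −3.5 and −2.5 against −1.0 in HCC44.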

How the data were processed

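ATAC-seq peak lists of 8 samples were analysed, 1 per sample, so the authors called peaks per sample. Reads were aligned with BWA to hg38, per the submitters' processing notes, and the peak caller is not given in the sources used here. The deposited lists are in broadPeak layout without a header. They give each peak's fold enrichment, a ratio, and the −log10 of its p-value and q-value, all computed by the authors. The authors' deposited score column was not used. The lowest −log10 q in a list was 10.0 to 10.2, so weaker peaks are absent. These values depend on each library's depth, which is unknown, and in the main results they were used only within a list. The alternatives with a minimum −log10 q or fold applied the same cutoff to every list.

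Gene positions came from RefSeq (GRCh38.p14). Strand came from the RefSeq promoter table and was not used for genes without an entry. Windows were 1 kb and 50 kb, and 1 bp of overlap counted. Each list was used whole, and counts were compared by whether the groups of 2 overlapped. Intervals are exact Clopper-Pearson. Functions were tested on simulated data. Named genes were the 10 with the largest mean fall, those with a boundary peak lost or gained, the 6 with the largest line difference including ties, and those without peaks, besides members given by role. The members, gene lists and rules were chosen with earlier results of these data known. Alternatives were a minimum −log10 q or fold, lists of equal length, joined peaks, other windows, 50% cover, leaving out each replicate, and a replicate block. Leaving out peaks at any gene boundary, alone or with lists of equal length, and the comparison limited to genes with at least 5 surrounding peaks were chosen after seeing the data. Python 3.11.15 was used with numpy 2.4.6, pandas 2.3.3, scipy 1.17.1 and matplotlib 3.10.9.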

Additional observations from a re-analysis of the deposited data

How the results depend on the processing

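The 14 summary results were recomputed to give 138 alternative values, of which 98 stayed within the set margin, 36 moved and 4 reversed. The reversals were the summed surrounding peaks with lists of equal length (log2 0.15 in H1975, 0.22 in HCC44; 0.21 and 0.23 at no gene boundary). Equal length also gave 6 and 7 genes with fewer surrounding peaks and 10 and 12 with more (6 and 7, and 10 and 10, at no boundary), shares lost of 13.5% and 22.3%, boundary peaks kept at 12 of 12 genes in HCC44, and, with DMSO, 5 genes higher and 9 lower in HCC44 (5 higher at no boundary). A minimum −log10 q of 20 gave −1.03 and 49.7% lost in HCC44, and 2 genes higher in HCC44 with ACBI1. A minimum fold of 5 gave 1 gene with more in H1975, 11 and 0 genes keeping a boundary peak, −1.44 and 56.4% lost in HCC44, and line counts of 3 higher and 17 lower with DMSO and 1 and 21 with ACBI1. A 20 kb flank gave −0.84 in H1975 and −1.03 and 49.7% in HCC44. A 100 kb flank gave 1 gene with more in H1975 and −0.69 in HCC44. Requiring 50% cover gave 49.3% lost in HCC44. Peaks at no gene boundary alone gave −0.95 and −1.09 (H1975, HCC44) and shares lost of 42.4% and 55.0%. With lists of equal length as well, the shares were 26.4% and 42.0%. These were counted as within the margin because they were set against the main shares over all surrounding regions. The cause of these changes was not tested, beyond what each setting removes.

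Leaving out each replicate gave 24 to 28 genes with fewer in H1975 and 27 to 30 in HCC44, 0 to 1 with more in each, log2 differences of −0.81 to −0.52 and −0.83 to −0.73, boundary peaks kept at 19 to 20 and 21 to 22 genes, and shares lost of 31.5% to 42.9% and 45.4% to 46.3%. The line counts were 17 to 18 higher and 5 to 9 lower in HCC44 with DMSO, and 8 to 14 and 6 to 14 with ACBI1. Same-numbered replicates shared only a number: their deviations correlated with r = 0.10 (H1975) and 0.04 (HCC44) over all genes with peaks. With the number as a replicate block, genes with fewer were 26 (H1975) and 27 (HCC44), 0 had more, and the line counts were 17, 5, 10 and 7. The summed, kept and lost values do not change under a replicate block by construction. Leaving out a replicate, or comparing within blocks, makes the rule for a gene easier to meet. The gene counts could therefore only stay or rise in these settings, and their ranges do not show how stable the counts are.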

Other observations

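Among the marker genes of other cell types, surrounding peaks were also fewer with ACBI1. CDH5, an endothelial cadherin, had 7 and 6 with DMSO against 5 and 4 with ACBI1 in H1975, and 5 and 5 against 3 and 2 in HCC44. PECAM1, an endothelial adhesion receptor, had 10 and 11 against 4 and 3 in HCC44 and no boundary peak in any sample. NKX2-1, the lung lineage factor, had a boundary peak in all 4 H1975 samples and in 1 of 4 HCC44 samples. SFTPB, a surfactant gene, had one only in the DMSO samples of HCC44. The other lung epithelium markers counted, SFTPC and NAPSA, had a boundary peak in all 8 samples.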
